A study of Mus musculus with 8 samples.

Results

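*Dmkn* and 9 genes of embryonic epithelia were followed in E8.5 mouse embryos of wild-type genotype, a stage at which the surface ectoderm covers the closing neural tube as a single layer of simple epithelium. The 10 genes, of 20660 named on the array, were the keratins *Krt5*, *Krt8*, *Krt14*, *Krt18* and *Krt19*, the adhesion genes *Cdh1* and *Epcam*, the regulators *Grhl2* and *Trp63*, and *Dmkn*. *Dmkn* was chosen on its lower signal with heterozygous fathers, so its values in that contrast are given as a description and were not tested. The other 9 genes were chosen by name as epithelial markers, and all 14 probes whose RefSeq transcript maps to the 10 genes were read, of which 13 passed the filter on dim probes.

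The study asked whether reduced function of EED, a core subunit of the Polycomb repressive complex PRC2, in the father's germline changes gene expression in offspring. All 8 embryos were Eed wt/wt, from Eed wt/wt mothers, with 4 sired by Eed wt/wt males (WT 1 to WT 4) and 4 by males heterozygous for the hypomorphic allele Eedl7Rn5-1989SB (Eed hypo/wt, HET 1 to HET 4). None of the embryos therefore carried the hypomorphic allele, and the germline of a heterozygous father kept a normal copy of *Eed*. The fathers were of the C57bl6/129 background. The labels give the mothers the same background, whereas a supplementary legend of the study describes them as c57bl/6J. WT 1, WT 3, HET 2 and HET 4 were female and the others male. Each embryo was an individual whole embryo with a single-colour Agilent 8x60K array of its own. The number of fathers behind the wild-type father group is given differently in the study's legends, and WT 2, WT 3 and WT 4 share the first part of their code. Every array of a group was on the same slide and no slide held both groups, so the slide and the genotype of the father cannot be told apart. Between 29203 and 39530 probes were well above background per array, with the highest numbers in WT 1 and HET 3. The local background was 50 to 51 intensity units in the wild-type father group and 30 to 32 with heterozygous fathers, except for 133 in HET 4.

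Keratins are intermediate filament proteins that pair a type I with a type II chain. KRT8 pairs with KRT18 and KRT19 in simple epithelia, and KRT5 with KRT14 in the basal layer of stratified epithelia. Cell contacts of these tissues rest on E-cadherin, encoded by *Cdh1*, and on EPCAM. The transcription factor p63, encoded by *Trp63*, commits ectoderm to the epidermal lineage, and GRHL2 is required for epithelial junctions and neural tube closure. Dermokine, encoded by *Dmkn*, is a secreted protein of epithelia best known from differentiating epidermis, and its gene lies between *Sbsn* and *Krtdap*, which encode other secreted epidermal proteins.

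RefSeq gives *Dmkn* an upstream start and an internal start on chromosome 7. The 250 bases before each start are shown with those of *Sbsn* and *Krtdap*, the genes on either side that are also expressed in epidermis, because *Dmkn* differed between father groups and *Sbsn* can be read beside it in the same embryos. All are on build GRCm38.p6, plus strand, 5′ to 3′. Capitals mark TGANTCA, a looser form of TGASTCA (S is C or G), the motif bound by AP-1 factors, which are active in epidermis.
Dmkn upstream start, chr7:30763506-30763755: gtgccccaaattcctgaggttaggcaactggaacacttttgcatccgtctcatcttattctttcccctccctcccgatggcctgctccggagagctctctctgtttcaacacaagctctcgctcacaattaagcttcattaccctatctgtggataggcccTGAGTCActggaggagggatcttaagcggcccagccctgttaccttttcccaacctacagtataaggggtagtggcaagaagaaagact
Dmkn internal start, chr7:30776155-30776404: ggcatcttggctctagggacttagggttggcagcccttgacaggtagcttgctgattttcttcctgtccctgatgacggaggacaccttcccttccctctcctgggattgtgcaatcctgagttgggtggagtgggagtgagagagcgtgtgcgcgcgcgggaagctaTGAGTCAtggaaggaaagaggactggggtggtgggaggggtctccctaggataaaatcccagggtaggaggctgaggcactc
Sbsn, chr7:30751221-30751470: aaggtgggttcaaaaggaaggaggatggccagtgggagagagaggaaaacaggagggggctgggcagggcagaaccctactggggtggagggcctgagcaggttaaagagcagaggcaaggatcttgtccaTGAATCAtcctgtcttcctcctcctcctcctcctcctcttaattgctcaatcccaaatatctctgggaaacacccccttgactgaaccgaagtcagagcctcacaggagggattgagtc
Krtdap, chr7:30787655-30787904: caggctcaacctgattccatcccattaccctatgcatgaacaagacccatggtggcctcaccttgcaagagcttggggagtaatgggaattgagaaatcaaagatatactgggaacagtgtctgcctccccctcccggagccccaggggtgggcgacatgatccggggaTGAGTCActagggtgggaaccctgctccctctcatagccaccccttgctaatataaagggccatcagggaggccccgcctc
Each of these windows held 1 match, which began 89 bases before the upstream start of *Dmkn* and 82 before its internal start, 119 before that of *Sbsn* and 81 before that of *Krtdap*. A further *Dmkn* window, moved by 2 bases from the upstream start, held the same match. The match read TGAGTCA in the *Dmkn* and *Krtdap* windows and TGAATCA, which is outside TGASTCA, in that of *Sbsn*. On either strand, TGANTCA, with any middle base, occurred in 6.75% of the 32851 promoter windows of this length. None of the windows of *Krt5*, *Krt8*, *Krt14*, *Krt18* and *Epcam* held it. None of the windows of the 10 genes that were present held AACNGGTT, the core of the grainyhead motif, which occurred in 1.79% of all windows. *Krt19*, *Cdh1*, *Grhl2* and *Trp63* had no window. Which *Dmkn* start gives rise to the RNA seen by the array was not determined.

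*Dmkn* had a lower signal in the embryos of heterozygous fathers at both of its probes. Levels below are log2 intensities after each array was shifted so that its 75th percentile was 0, and levels of different probes are not comparable with each other. At the brighter probe, A_55_P2133405, the level was -1.49 in WT 1, -1.12 in WT 2, -2.06 in WT 3 and -1.48 in WT 4, against -3.50 in HET 1, -3.05 in HET 2, -3.49 in HET 3 and -2.26 in HET 4. The 4 lower levels were all from heterozygous fathers. WT 3 and HET 4 lay closest to the other group. HET 4 was also the array with the highest local background, and the part of this in its level was not tested. Before scaling, the same spots read 336.1, 586.6, 273.9 and 403.1 intensity units in WT 1 to WT 4 and 111.8, 129.2, 86.1 and 234.7 in HET 1 to HET 4, so the raw intensities did not overlap either.

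The group means were -1.54 ± 0.39 (SD, n = 4) with wild-type fathers and -3.07 ± 0.58 (SD, n = 4) with heterozygous fathers, a log2 difference of -1.54 (SE 0.32), or 2.90-fold lower. A second probe, A_55_P2140592, read -1.72, -1.25, -2.30 and -1.78 in WT 1 to WT 4 and -3.53, -3.09, -4.08 and -2.39 in HET 1 to HET 4. It ordered the embryos almost as the first did, with WT 3 lowest and HET 4 highest of their groups, and differed by -1.51 (SE 0.38), or 2.85-fold lower. Both probes were well above background on all 8 arrays. The lowest value, that of HET 3 at the second probe, was near the dimmest signal well above background on that array (-4.55). Across the 8 embryos the probes correlated with r = 0.982, and r was 0.948 for the deviations from the father group means. Both probes map to the same transcript and were read on the same arrays, so they are not independent measurements.

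Father groups that did not overlap were found at 1065 probes, 3.22% of the 33093 tested, and 40 probes, 0.121%, were also at least 2-fold lower with heterozygous fathers. Nothing is read from these shares for *Dmkn*, which was chosen on this contrast. Its spread within groups was wide for the array. The pooled SD of the brighter probe was 0.49, higher than at 80.0% of tested probes, and that of the second probe, 0.59, was higher than at 84.0%.

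**Figure D1:**
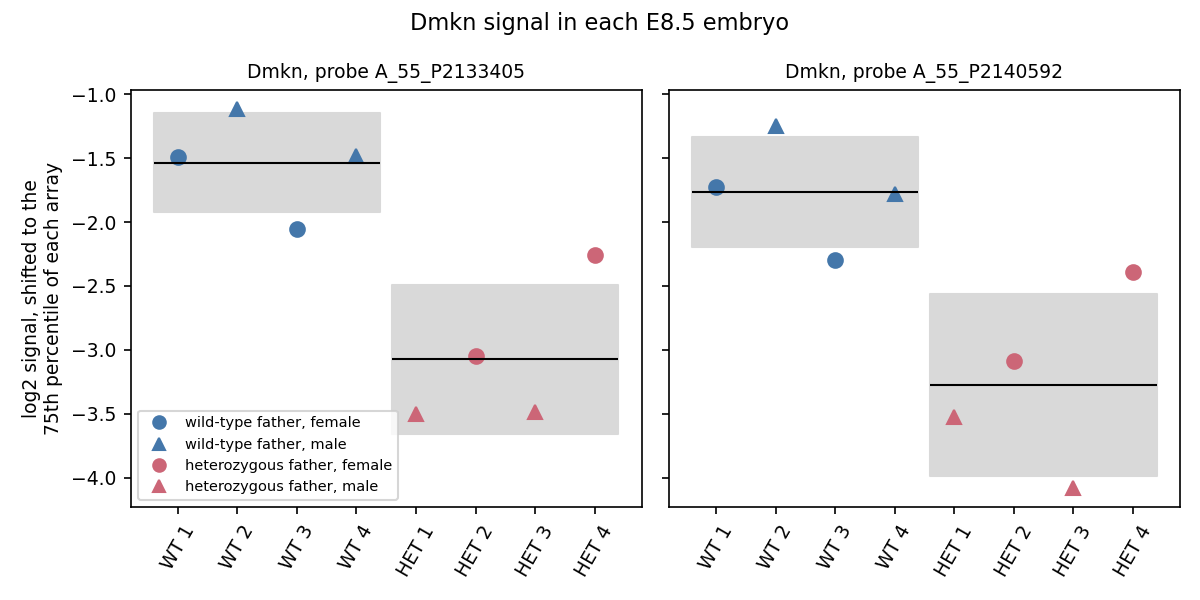
The 2 *Dmkn* probes in each embryo, as log2 signal shifted to the 75th percentile of each array. Circles are females and triangles males, lines are group means and grey bands ± 1 SD (n = 4), and HET 4 is the embryo of a heterozygous father nearest to the wild-type father group.

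None of the 9 other genes passed the test between father groups. Calls needed an adjusted p under 0.01 and a 2-fold difference, which 0 of their 11 tested probes reached, where 0 of all 33093 probes, or 0%, did (limma, Benjamini-Hochberg adjustment). At an unadjusted p under 0.05 the count was also 0 of 11, where 1455 probes, 4.4% of those tested, passed. The median log2 difference of the 11 probes was -0.09, beside 0.0029 over all tested probes, with 5 higher and 6 lower. The father groups overlapped at all 11, where they did not overlap at 3.22% of all tested probes. In bulk RNA of whole embryos, fewer cells of a type and less RNA per cell cannot be told apart.

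The simple epithelial keratins had bright spots on every array. *Krt8* read 4.74, 4.84, 4.78 and 4.59 in WT 1 to WT 4 and 4.67, 4.82, 4.16 and 4.79 in HET 1 to HET 4, a log2 difference of -0.13 (95% interval -0.49 to 0.23). The low value belonged to HET 3, and the other 7 embryos lay between 4.59 and 4.84. *Krt18*, its type I partner, lay between 7.12 and 7.23 with wild-type fathers and between 6.81 and 7.21 with heterozygous fathers, and differed by -0.10 (95% interval -0.32 to 0.13). *Krt19*, a type I keratin of simple and ductal epithelia, lay between 2.01 and 2.26 in the former group and between 1.98 and 2.30 in the latter. Its difference of 0.02 (95% interval -0.21 to 0.25) changed sign with arrays aligned on their medians.

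The basal keratin *Krt5* had the smallest unadjusted p of the 9 genes. It read -1.33, -1.68, -1.51 and -1.70 with wild-type fathers and -1.19, -1.23, -1.41 and -1.40 with heterozygous fathers. Only WT 1 reached into the range of the other group, and the direction was opposite to that of *Dmkn*. The log2 difference was 0.24 (SE 0.11, 95% interval -0.0041 to 0.49, unadjusted p = 0.053, adjusted p = 1 by limma). The value depended on the fit. With arrays aligned on their medians it was 0.14 (unadjusted p = 0.707, adjusted p = 1), and the unadjusted p was 0.103 with quantile normalization and 0.172 where the embryo code entered as a random effect. It fell below 0.05 in 5 other fits, among them 0.0134 without WT 1 and 0.00866 with array weights, and the adjusted p was 0.463 or higher in every limma fit. A second *Krt5* probe, A_66_P116076, was well above background in WT 1 (-4.11) and HET 3 (-2.27) only and was not tested. *Krt14*, the partner of *Krt5*, lay between -3.71 and -3.59 with wild-type fathers and read -3.62, -3.79, -3.15 and -3.83 in HET 1 to HET 4. HET 3 was the highest embryo, and the difference of 0.06 (95% interval -0.30 to 0.41) became -0.05 with arrays aligned on their medians and -0.09 with quantile normalization.

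Of the adhesion genes, *Cdh1* was measured on 10 spots per array and had a narrow spread. Its levels ran from 2.17 to 2.38 with wild-type fathers and from 2.08 to 2.29 with heterozygous fathers, a log2 difference of -0.09 (95% interval -0.28 to 0.10). *Epcam* varied more, with -0.24, 0.25, 0.21 and -0.20 in WT 1 to WT 4 and 0.51, 0.36, -0.30 and 0.30 in HET 1 to HET 4. It was 0.21 higher with heterozygous fathers (95% interval -0.26 to 0.69), with HET 3 the lowest embryo of all. Its unadjusted p by limma was 0.331 with all embryos. Among the fits that left out each embryo in turn, it was 0.0395 without HET 3 (adjusted p = 0.522 by limma).

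The regulators *Trp63* and *Grhl2* had a pair of probes each, which differed in how stable they were. *Trp63* read 2.19, 2.05, 2.21 and 2.26 in WT 1 to WT 4 and 1.85, 1.91, 2.13 and 2.22 in HET 1 to HET 4 at its brighter probe, a log2 difference of -0.15 (95% interval -0.39 to 0.09). Its second probe, which maps to another transcript, differed by -0.23 (95% interval -0.86 to 0.40). *Grhl2* lay between 0.14 and 0.36 in one group and between 0.13 and 0.44 in the other at its brighter probe, and the difference of 0.04 (95% interval -0.20 to 0.27) turned to -0.07 with arrays aligned on their medians. The second *Grhl2* probe, A_51_P408821, read -2.62 in WT 1 and -2.45 in HET 3 and between -5.13 and -3.64 in the other 6 embryos. These were the arrays with the most probes above background, and its within-group SD of 0.97 was higher than at 92.7% of tested probes. The difference of -0.39 at this probe had a 95% interval from -1.83 to 1.05, which includes a 2-fold change in either direction. For the brightest probe of each of the 9 genes, the intervals lay between -0.49 and 0.69, within a 2-fold change in either direction. All these intervals take the embryos of a group as independent. They are too narrow if the embryos that share a code, WT 2, WT 3 and WT 4, resemble each other. With the code as a random block, these embryos correlated at 0.541, and by this estimate the intervals are too narrow. Intervals with the code in the fit were not computed.

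**Figure D2:**
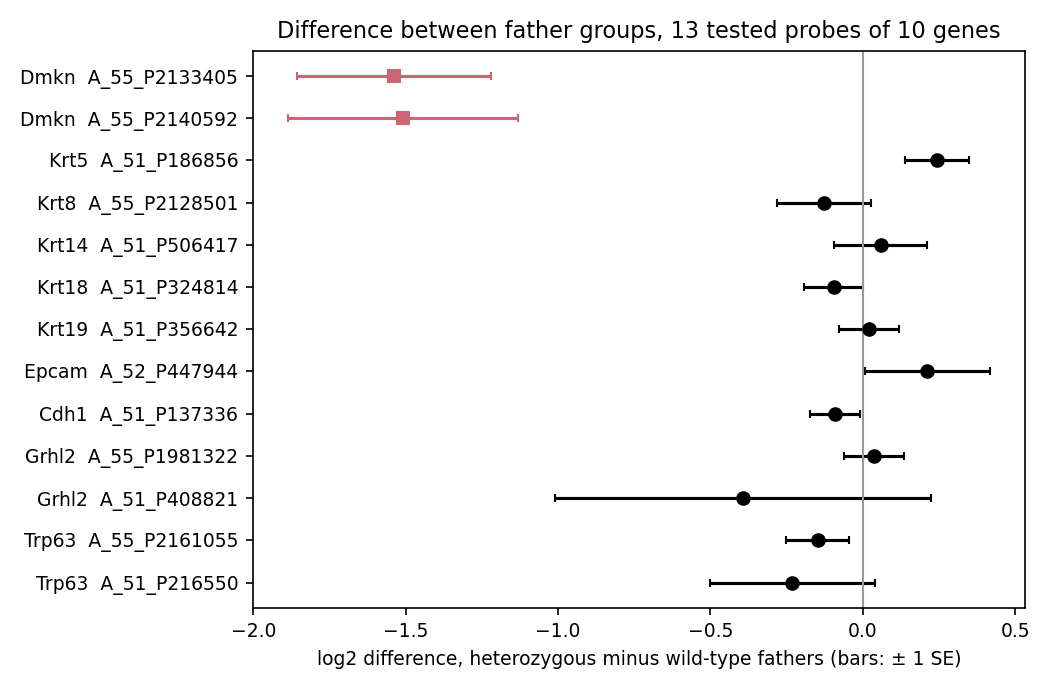
Log2 difference between father groups (heterozygous minus wild-type) at the 13 tested probes of the 10 genes, with bars of ± 1 SE from the fit over 4 embryos per group. The *Dmkn* probes, drawn as squares and chosen on this contrast, lie at -1.54 and -1.51, and the other 11 probes lie between -0.39 and 0.24.

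Within single embryos, the 9 genes deviated in both directions. HET 3 had the widest range of deviations from the means over all embryos, from -0.51 for *Krt8* to 0.48 for *Krt14* (brightest probes). In WT 3, the narrowest, they lay between -0.11 and 0.13. Without WT 1 and HET 3 together, an alternative chosen after seeing the data, the *Dmkn* difference was -1.39 at the brighter probe and -1.23 at the second.

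**Figure D3:**
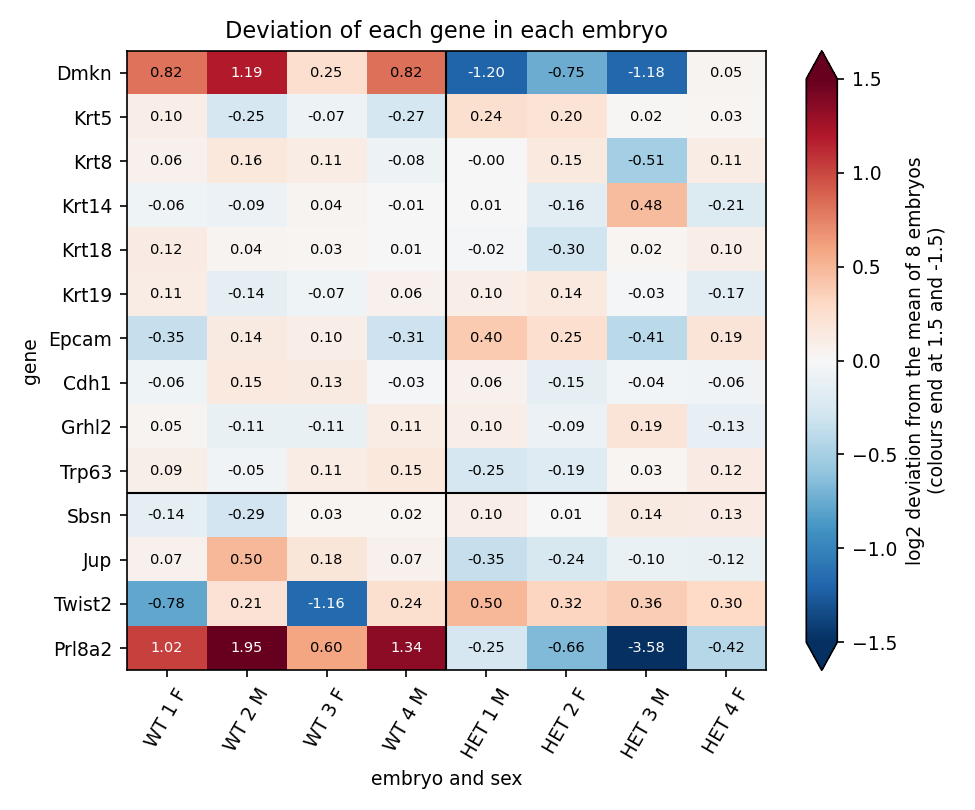
Log2 deviation of each gene from its mean over the 8 embryos, for the 10 genes (brightest probe) and for *Sbsn*, *Jup*, *Twist2* and *Prl8a2* below the line, with colours ending at ± 1.5. Father groups are separated by the vertical line and F and M give the embryo's sex. *Dmkn*, *Jup* and *Prl8a2* are higher and *Twist2* is lower in all embryos of wild-type fathers, and the father groups overlap at the 9 other member genes and at *Sbsn*.

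Wider lists of epithelial genes gave 0 calls between father groups, where all 33093 tested probes gave 0 as well. All 21 adherens and tight junction genes were tested, with a median log2 difference of -0.02 and 9 higher and 12 lower, among them the claudin *Cldn4* (0.25), *Cdh3* (0.17) and *Tjp1* (-0.13). The 24 surface ectoderm and epithelial regulators also had a median of -0.02, with 11 higher and 13 lower, among them *Grhl3* (0.15), *Tfap2a* (-0.03) and *Ovol2* (-0.15). At an unadjusted p under 0.05 the counts were 0 of 21 and 0 of 24, where 4.4% of all tested probes passed. Of 17 desmosome and hemidesmosome genes, 13 were tested, with a median of -0.04, and the desmosomal plakophilin *Pkp3* (0.03) and desmoplakin *Dsp* (-0.04) were close to 0.

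*Jup*, which encodes plakoglobin of desmosomes and adherens junctions, was the 1 gene of the 13 tested with an unadjusted p under 0.05, which is about what the share of 4.4% over all tested probes gives for a list of this size. It read -4.20, -3.77, -4.09 and -4.20 in WT 1 to WT 4 and -4.62, -4.51, -4.37 and -4.38 in HET 1 to HET 4. The groups did not overlap, as at 3.22% of all tested probes. The probe was dim, and its level in HET 3 was near the dimmest signal well above background on that array (-4.55). The log2 difference was -0.41 (SE 0.12, unadjusted p = 0.00944, adjusted p = 1 by limma). It was -0.64 with quantile normalization (unadjusted p = 0.263), -0.51 with arrays aligned on their medians (unadjusted p = 0.174) and -0.18 with quantile normalization after normexp background correction (unadjusted p = 0.319), each with an adjusted p of 0.825 or higher by limma.

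Among 14 other keratins, 9 were tested, with a median log2 difference of -0.06 and a range from -0.35 for *Krt80* to 0.33 for *Krt15*. Genes of the later epidermal barrier were partly below background. Of 16 listed, 15 had a probe and 8 were tested, with a median of -0.01. *Flg2*, *Lce1a1* and *Dsg1a* were well above background on 0 of the 8 arrays, and *Ivl* on 2. *Lor*, a cornified envelope gene, differed by 0.02 and *Tgm1*, a cross-linking enzyme, by 0.17. At an unadjusted p under 0.05 the count was 0 in both lists, beside the same 4.4% of all tested probes.

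Markers of other cell types in the embryo and its membranes were read as well. The 14 mesenchymal genes had a median log2 difference of 0.04, the 8 gut endoderm markers 0.06, and the 11 tested visceral yolk sac endoderm markers 0.03, with 0 genes at an unadjusted p under 0.05 in all of them, beside 4.4% of all tested probes. The summed level of the yolk sac markers ran from 9.11 to 9.61 with wild-type fathers and from 9.42 to 9.47 with heterozygous fathers on the log2 scale. *Twist2*, a mesenchymal regulator, was the 1 gene of these lists whose father groups did not overlap (0.74, unadjusted p = 0.0543, adjusted p = 1 by limma), where the share over all tested probes was 3.22%, so that a count of 1 in lists of this size is near the background.

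*Prl8a2*, a prolactin-family hormone of the decidua, the maternal tissue around the embryo, was lower with heterozygous fathers, as *Dmkn* was. It read 1.99, 2.92, 1.56 and 2.31 in WT 1 to WT 4 and 0.72, 0.31, -2.61 and 0.54 in HET 1 to HET 4. The groups did not overlap, as at 3.22% of all tested probes, and HET 3 lay far below the other embryos. Within the wild-type father group WT 2 was highest and WT 3 lowest, as for *Dmkn*, whereas within the other group HET 1, lowest for the brighter *Dmkn* probe, was highest for *Prl8a2*. The log2 difference was -2.45 (SE 0.75, unadjusted p = 0.0127, adjusted p = 1 by limma), and *Prl8a2* was the 1 gene of 10 tested in the trophoblast and decidua list at an unadjusted p under 0.05, beside 4.4% of all tested probes.

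*Prl3d1*, a hormone of trophoblast giant cells, read 0.73, -0.68, 0.82 and -0.81 in WT 1 to WT 4 and 0.03, -0.35, -2.99 and -0.27 in HET 1 to HET 4, with overlap. It was low in HET 3 like *Prl8a2*, but in the wild-type father group it was high in both females and low in both males. The list had 11 of its 12 genes on the array and 10 tested, with a median log2 difference of -0.01. Its summed level ran from 4.47 to 5.62 with wild-type fathers and from 4.56 to 5.53 with heterozygous fathers. *Gcm1*, between 3.23 and 5.17, was the brightest gene of the list in every embryo. The sum is therefore weighted towards *Gcm1* and is not a measure of decidual RNA. *Tpbpa*, which defines spongiotrophoblast, was well above background on none of the arrays, and *Dcn*, which encodes decorin and is also expressed in mesenchyme, differed by -0.06. The part of decidual RNA in the *Dmkn* difference was not tested.

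**Figure D4:**
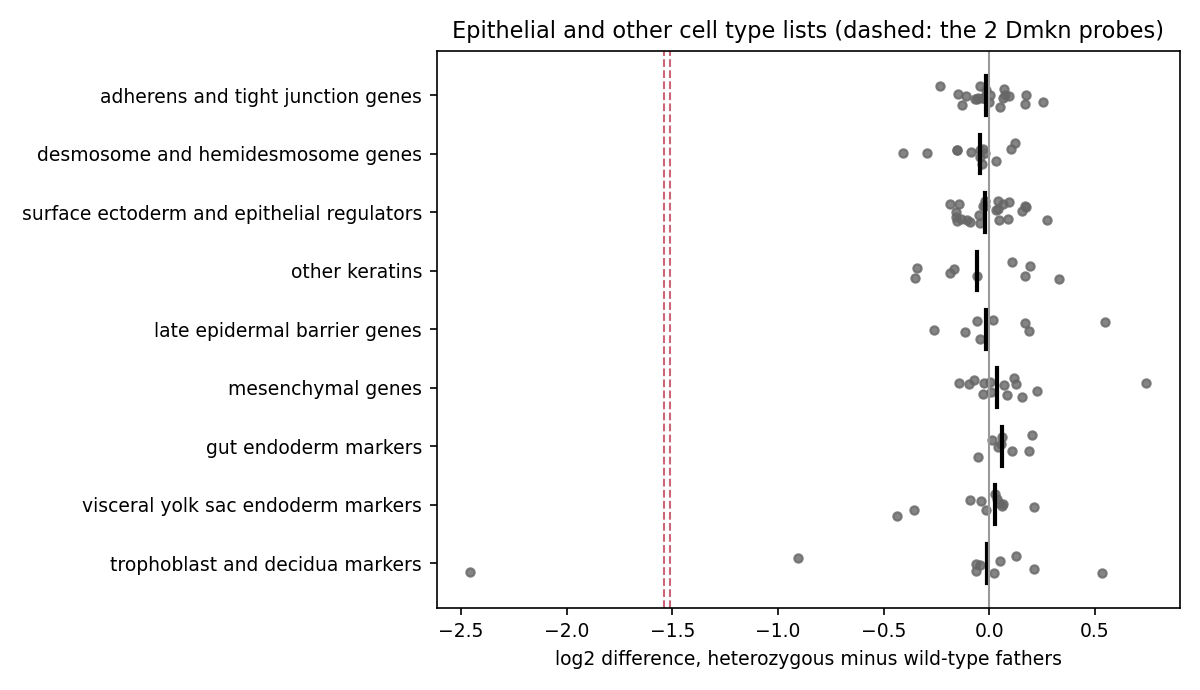
Log2 difference between father groups (heterozygous minus wild-type) for each tested gene of 9 lists, shown as points jittered vertically, with the median of each list as a black bar. The dashed lines mark the *Dmkn* probes at -1.54 and -1.51, and *Prl8a2* at -2.45 is the single list gene beyond them.

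None of the tested neighbours of *Dmkn* on chromosome 7 passed the test, where 0 of all 33093 tested probes did. *Sbsn*, the nearest gene on the side of lower coordinates, read -0.42, -0.56, -0.25 and -0.25 in WT 1 to WT 4 and -0.18, -0.27, -0.14 and -0.15 in HET 1 to HET 4. It was 0.19 higher with heterozygous fathers (95% interval -0.03 to 0.40, unadjusted p = 0.0762, adjusted p = 1 by limma), opposite in direction to *Dmkn*, and its promoter window is the one printed above. *Krtdap*, the nearest gene on the other side, was well above background on 4 arrays, with levels from -7.44 to -2.42 and a difference of 0.55 whose 95% interval ran from -2.18 to 3.27.

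Of the 5 nearest genes with a probe on each side, 6 of 10 were tested. None had an unadjusted p under 0.05, beside 4.4% of all tested probes, so the count is near the background. *Tmem147* differed by 0.11, *Ffar2* by 0.06, *Ffar3* by -0.14 and *Cd22* by -0.05, and the direction of *Ffar2* turned with arrays aligned on their medians and that of *Cd22* with normexp and quantile normalization. *Ffar2* spanned -6.83 to -0.41 and was well above background on 5 arrays. *2200002J24Rik*, *Atp4a*, *Gapdhs* and *Ffar1* were well above background on at most 2 arrays and were not tested.

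**Figure D5:**
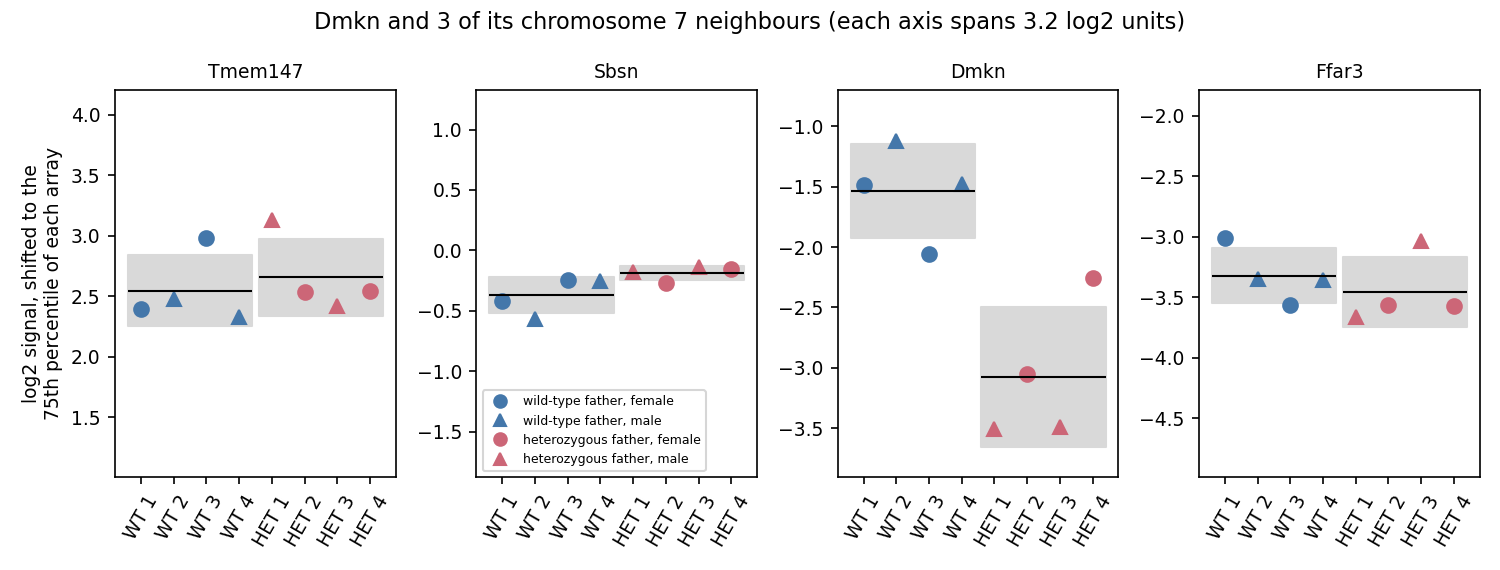
*Dmkn* and 3 of the 4 chromosome 7 neighbours that were well above background on all 8 arrays (*Cd22* is not drawn), as log2 signal shifted to the 75th percentile of each array, with each vertical axis spanning 3.2 log2 units around the gene's mean. Symbols, lines and bands are as for the plot of both *Dmkn* probes, and the father groups stand apart for *Dmkn* alone of these 4.

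Each father group held 2 females and 2 males, so the sexes could be compared within it. With father group in the fit, 0 of the 13 probes of the 10 genes were called between the sexes, where 11 of all tested probes, 0.0332%, did. At an unadjusted p under 0.05 the count was 0 of 13, where 1084 of the tested probes, 3.28%, passed, and the smallest p was 0.167, at the second *Trp63* probe. *Dmkn* was 0.18 higher in females at the brighter probe (95% interval -0.62 to 0.99) and 0.28 at the second (95% interval -0.66 to 1.23). Both values turned negative with array weights.

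The difference of *Dmkn* between father groups, the contrast on which it was chosen, was larger between these males than between these females. The interaction did not pass the adjusted test, and its values are given as a description only. At the brighter probe, the female means were -1.77 with wild-type fathers and -2.66 with heterozygous fathers, a log2 difference of -0.88 with 2 embryos on each side. The male means were -1.30 and -3.49, a difference of -2.19. The interaction of father and sex was 1.31 (SE 0.46, unadjusted p = 0.0337, adjusted p = 0.996 by limma), and at the second probe it was 1.56 (SE 0.52, unadjusted p = 0.0281, adjusted p = 0.996 by limma), from -0.73 in females and -2.29 in males. These 2 of 13 probes had an unadjusted p under 0.05, where 737 of the tested probes, 2.23%, passed. Both read *Dmkn*, which was chosen on the father contrast of the same values. Nothing is therefore read from this count or from any interaction p-value of *Dmkn*. Probes of the other 9 genes had an unadjusted p of 0.111 or higher by limma. Of the 33093 probes, 0, or 0%, had an adjusted p under 0.01 with a 2-fold difference. With quantile normalization, an alternative chosen after seeing the data, the interactions were 1.97 and 2.43 with unadjusted p of 0.0549 and 0.093, so that 0 of 13 passed, and with arrays aligned on their medians they were 2.06 and 2.31 with unadjusted p of 0.0186 and 0.0141 (adjusted p of 0.687 or higher by limma). The second *Grhl2* probe had the next largest interaction in size, -1.19 (unadjusted p = 0.418, adjusted p = 0.996 by limma).

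The genes whose pattern over the 8 embryos was most like that of the brighter *Dmkn* probe were *Mrps33* (Pearson r = 0.971), *Pgm1* (0.963), *Rbm26* (0.962), *Trmt1* (0.956) and *Tmem35b* (0.950). They were the highest of all tested probes with a symbol, and such a correlation includes the gap between the father groups in *Dmkn*. Their own differences between father groups were small beside that of *Dmkn*, from -0.42 for *Trmt1* to -0.12 for *Mrps33*. By the deviations from the father group means, the most alike were *Akap6* (0.960), *Med14* (0.958), *Ctla2b* (0.958), *1700097N02Rik* (0.955) and *Mrps33* (0.952), so that *Mrps33* was in both sets. *Ctla2b* read 1.63, 1.79, 1.11 and 1.42 in WT 1 to WT 4 and 0.99, 1.22, 0.89 and 1.58 in HET 1 to HET 4, with HET 4 highest in its group, as for *Dmkn*. These correlations are given without a test, since the genes were picked as the highest among all tested probes with a symbol and all share the same 8 arrays.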

How the data were processed

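RNA from 8 individual E8.5 embryos was hybridised to single-colour Agilent arrays. Per the study's methods and the submitters' processing notes, the authors extracted spots with Agilent Feature Extraction (version 11.0.1.1). The deposited intensity had the background subtracted and spatial trends removed, with no scaling across arrays. A deposited table for all samples holds the same intensity values rounded (largest relative difference 0.497%) and served as an alternative, and 0 of its sample columns were left unused. The methods name a percentile shift without its percentile, and no test.

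The log2 intensity of each of the 59305 spots that are not controls was shifted by the 75th percentile of its array, and repeated spots of a probe were averaged without those marked as outliers. A probe was tested if its mean exceeded the lowest 20% and it was well above background on 4 or more arrays. Father groups, sexes (with father in the fit) and their interaction were tested with limma 3.58.1 in R 4.3.3 over all 33093 remaining probes, with Benjamini-Hochberg adjustment, and a call needed an adjusted p under 0.01 and a 2-fold difference, the study's cut-off. The test was checked on simulated data with independent noise. The simulation held no effects of slide, embryo code or array, so the check does not cover these. The number of arrays limits the precision.

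Members and lists were chosen with earlier results of these data known. Probes were named through RefSeq accessions in a table of assembly GRCm38.p6 (27235 of 28685 matched), used for names and gene order only, since the array's own intervals are on another build. Promoter windows are from RefSeq on GRCm38.p6. Genes named were the members with all probes, the 5 nearest genes with a probe on each side of *Dmkn*, the 5 most alike in pattern by each of 2 correlations, and list genes at an unadjusted p under 0.05, each by its brightest tested probe. Other list genes named, *Twist2*, *Prl3d1* and the examples, were picked after their values were seen, and some list genes are not reported here. Alternatives were other scalings and background correction, filters, moderation, array weights, sex, replicate number or embryo code in the fit, averaged probes, and each embryo left out. Figures were drawn with Python 3.11.15 and matplotlib 3.10.9.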

Additional observations from a re-analysis of the deposited data

Results flagged for a closer look

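In 2 of the 32 groups of 4 embryos examined, at the member probes and at *Jup* and *Prl8a2*, a single embryo stood far from the others of its group, where chance gives about 1.6. The second *Krt5* probe, A_66_P116076, read -4.11 in WT 1, and the gap to the next embryo was 0.833 of the group's whole range. This probe was above background in WT 1 and HET 3 alone. *Prl8a2* read -2.61 in HET 3, with a gap of 0.876 of the range of the heterozygous father group. No *Dmkn* probe had such an embryo in either group.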

How the results depend on the processing

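The *Dmkn* difference ran from -1.82 to -1.26 over 22 alternatives at the brighter probe, and from -1.90 to -1.15 over 21 at the second. It moved by less than the spread between embryos. *Dmkn* was chosen on this contrast and its groups did not overlap, so leaving out an embryo could not turn the direction. Changes of filter or moderation, or sex in the fit, return the same difference by design. With an embryo left out the difference lay between -1.81 and -1.40 at the brighter probe and between -1.80 and -1.24 at the second. Counts of called members stayed at 0 in 22 alternatives for father (without *Dmkn*), 19 for sex and 3 for the interaction. Counts of called list genes and neighbours were rerun for father only and stayed at 0 in 13 alternatives. Members with an unadjusted p under 0.05 between father groups numbered 1 among probes above background on all arrays, 1 with array weights and 1 without WT 1 and HET 3 together (*Krt5* each time), and 0 to 2 with an embryo left out. Over all probes, 1354 passed in the first of these fits, 3056 with array weights and 1245 without WT 1, against 1455 in the main fit. Nothing is read from these member counts. Calls over all probes were 1 without that pair and 0 to 1 with an embryo left out (*Prim2* without WT 1, *Med8* without HET 4). Deviations of embryos with the same replicate number correlated with r from -0.59 to -0.05. Embryos with different numbers were not compared, so whether the numbers pair embryos was not determined. With the numbers as a replicate block the *Dmkn* difference was -1.54, as the balanced design requires, and the count of called members 0. Embryos with a shared code correlated at 0.541 as a random block. With that block 680 of all tested probes had an unadjusted p under 0.05 between father groups by limma, against 1455 in the main fit.

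Aligning arrays on their medians moved the median over all tested probes from 0.0029 to -0.10. Small differences changed sign under it, with -0.048 for *Krt14*, -0.086 for *Krt19*, -0.070 for *Grhl2* and -0.046 for *Ffar2*. *Krt14* also read -0.090 with quantile normalization, -0.079 with normexp, -0.054 with array weights and -0.10 without WT 1 and HET 3, where *Krt8* was 0.022. *Cd22* was 0.051 with normexp, *Krt19* -0.0061 with the code block, and *Grhl2* -0.18 with probes averaged. With an embryo left out, sign changes fell within -0.20 to 0.022 for *Krt8*, -0.091 to 0.14 for *Krt14*, -0.025 to 0.081 for *Krt19*, -0.021 to 0.084 for *Grhl2*, -0.37 to 0.034 for the second *Trp63* probe, -0.046 to 0.26 for *Tmem147*, -1.12 to 1.02 for *Ffar2* and -0.20 to 0.048 for *Cd22*. The sex difference of *Dmkn* was -0.14 at both probes with array weights, and with an embryo left out -0.11 to 0.43 at the brighter probe and -0.0097 to 0.56 at the second. For these sign changes the cause was not tested.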

Other observations

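*Twist2*, in the mesenchymal list, was looked at after its values were seen. It read -0.32 in WT 1 and -0.71 in WT 3, the females of the wild-type father group, and 0.67 in WT 2 and 0.70 in WT 4, the males. With heterozygous fathers the females HET 2 and HET 4 read 0.77 and 0.75 and the males HET 1 and HET 3 read 0.96 and 0.82. The father groups did not overlap, with the males of wild-type fathers just below the lowest embryo of heterozygous fathers.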
